A study of Homo sapiens with 12 samples.

Results

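The primary cilium transport and transition zone genes described here are 41 genes, of 19775 genes measured. They were chosen by gene symbol: 24 have a symbol made of IFT or BBS and a number, and 17 were named one by one. Where a gene had several probe sets, the one with the largest average across all 12 arrays was read. The group was put together with its changes in these same arrays known, so its counts of calls describe these arrays and give no independent evidence of a direction. All 41 passed the filter on low signal, which 18621 of the 19775 genes passed. A549, a human lung adenocarcinoma cell line, was transfected with 50 nM small interfering RNA (siRNA), and total RNA was taken 3 days later and hybridised to a 1-colour expression array. Cells with a FAM60A siRNA (3 arrays) were set against cells with a non-targeting siRNA (3 arrays). Cells with an SDS3 siRNA (3 arrays) were set against a separate set of non-targeting controls (3 arrays), and all 4 groups were A549 cells. The treatment protocol, given alike for all 12 samples, names the FAM60A and the non-targeting siRNA but no SDS3 siRNA, so the SDS3 groups rest on the sample titles and siRNA labels, and their dose and time on that shared protocol. FAM60A, now SINHCAF, and SDS3, now SUDS3, encode subunits of the SIN3-HDAC co-repressor, which carries histone deacetylases to chromatin.

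The primary cilium is a single, non-motile projection that grows from the mother centriole and works as an antenna, best known for Hedgehog signalling. Intraflagellar transport (IFT) builds it: IFT-B trains carried by kinesin-2 bring cargo to the tip, IFT-A trains carried by dynein-2 bring it back, and the BBSome moves membrane proteins. The transition zone at the base, made of the MKS, NPHP and tectonic proteins, acts as a gate for what enters. The transcripts are made in most cell types, and their levels do not by themselves show whether cells carry cilia.

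Each siRNA lowered its target: SINHCAF changed by -2.69 (log2; limma, Benjamini-Hochberg adjusted p = 7.76e-09) and SUDS3 by -1.58 (adjusted p = 3.06e-06). SINHCAF rose by 0.35 after SDS3 knockdown (adjusted p = 0.00291). Median signals were 186 to 192.6 in the FAM60A experiment but 96.82 to 98.32 in the other, so no level is compared across experiments or between probe sets. Arrays of a group correlated at 0.99782 to 0.99861. The mean of the 18S ribosomal RNA probe sets was higher by 0.28 in the FAM60A knockdown and by 0.53 in the SDS3 knockdown (log2), and its part in the results was not tested. The labels describe triplicate wells without naming separate cultures, so the p-values measure a spread between samples that may be technical. Of 13 measured markers of multiciliated cells, 1 (RSPH4A) had a group mean under log2 5 in every group, and HYDIN in both SDS3 groups. The mean over the list was 7.14 to 7.23 across the FAM60A arrays and 6.31 to 6.54 across the SDS3 arrays. For 5 measured leukocyte and endothelial markers it was close to that, 7.02 to 7.12 and 6.07 to 6.24. Signals of this size therefore do not show that the markers of either list are expressed. The part of these markers was not tested. All 7 epithelial markers were above the filter; 2 rose and 2 fell after FAM60A knockdown, and 1 rose and 5 fell after SDS3 knockdown. EPCAM and CDH1, both epithelial adhesion genes, fell in both (EPCAM by 1.22 and 0.58, CDH1 by 0.49 and 1.52, FAM60A first). The keratin gene KRT7 rose in both (by 0.27 and 0.25; with poly-A scaling 0.17 and -0.076, neither passing, and with hybridisation control scaling 0 epithelial markers rose after SDS3 knockdown), KRT19 rose by 0.50 and then fell by 0.35, and KRT8 and KRT18 fell after SDS3 knockdown (by 0.35 and 0.25). Their part in the results was not tested. In bulk RNA, fewer cells that express a gene and less of its RNA per cell cannot be told apart.

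After FAM60A knockdown 19 of the 41 genes rose and 6 fell, where 19.2% of all tested genes rose and 17.6% fell (limma, adjusted p under 0.05). The other 16 did not pass. The median log2 change was 0.18 over the 41 genes and -0.023 over all tested genes. After SDS3 knockdown 6 rose and 14 fell, where 15.8% of all tested genes rose and 18.8% fell, and 21 did not pass. The median was -0.072 over the 41 and 0.0064 over all tested genes. In all 25 genes called after FAM60A knockdown and all 20 called after SDS3 knockdown the 3 knockdown arrays lay entirely on one side of the 3 control arrays. The arrays overlapped for 12 of the 16 genes not called in the first experiment and for 15 of the 21 in the second. This separation was read on the same arrays as the calls and goes with passing the test, so it adds no support. It was not counted over all tested genes.

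**Figure D1:**
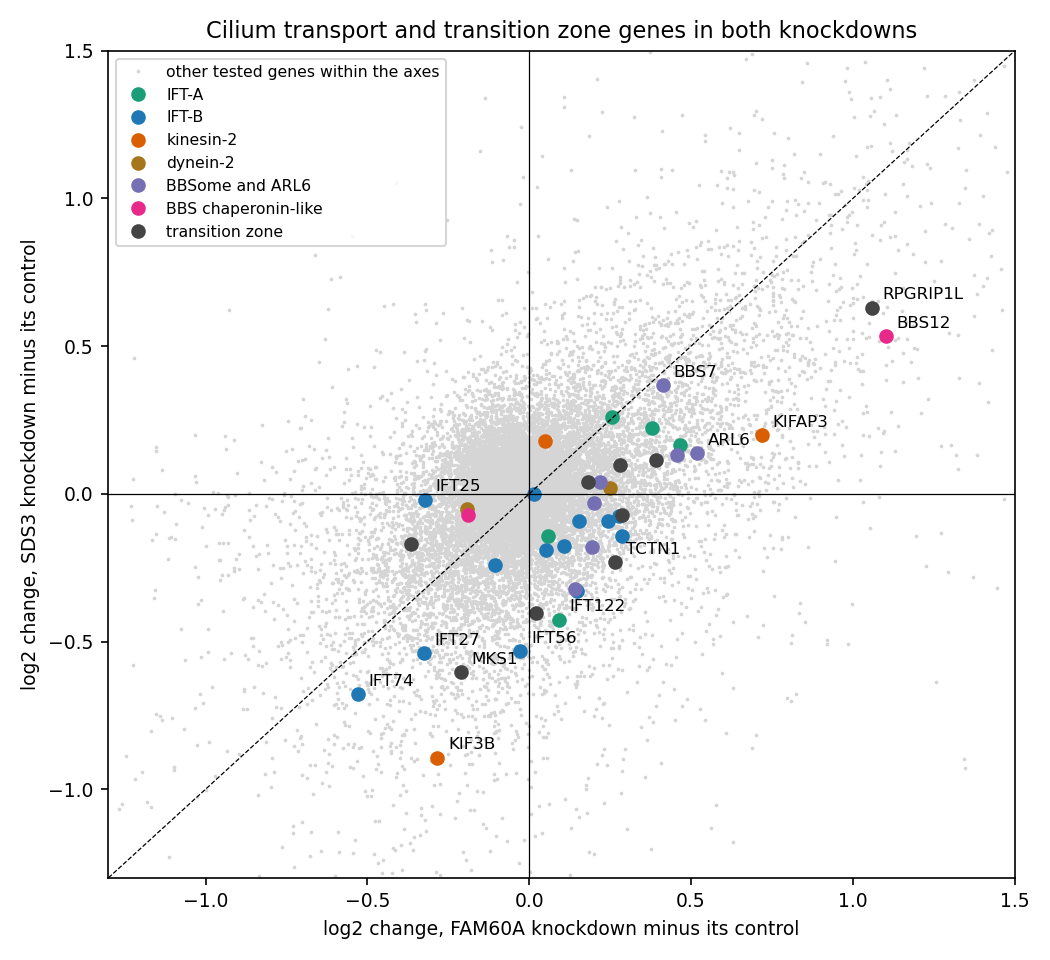
Log2 change of each gene after FAM60A knockdown (x axis) and after SDS3 knockdown (y axis), coloured by role, over other tested genes in grey; the dashed line marks equal changes. BBS12 and RPGRIP1L lie at the upper right, KIF3B and IFT74 at the lower left, and 35 of the 41 genes lie below the dashed line.

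For 22 of the 41 genes the change differed between the knockdowns, and for 19 the difference did not pass. The change after SDS3 knockdown minus that after FAM60A knockdown, fitted over all 12 arrays, passed below 0 for 21 genes and above 0 for 1 (IFT25), where 15.3% of all tested genes passed below 0 and 9.99% above. Its median was -0.28 over the 41 genes and 0.013 over all tested genes. The change after SDS3 knockdown was the lower one for 35 of 41 genes (85.4%) and for 47.7% of all tested genes. Genes called higher in both knockdowns numbered 5 (BBS7, BBS12, RPGRIP1L, WDR19 and WDR35), which is 26.3% of those called higher after FAM60A knockdown and 83.3% of those after SDS3 knockdown. Genes called lower in both also numbered 5 (CEP290, IFT27, IFT74, KIF3B and MKS1), 83.3% and 35.7% of the respective lists. The overlap of calls was not counted over all tested genes. These percentages therefore cannot be judged against it and show nothing particular to the 41 genes. TCTN1 rose in the first knockdown and fell in the second, 7 genes passed in neither, and these groups were named after their values were seen.

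The array values are relative to the bulk of the transcripts on each array. When arrays were scaled instead to their poly-A control probe sets, a choice made after the data were seen, the median of all genes moved by -0.10 in the FAM60A experiment, by -0.32 in the SDS3 experiment and by -0.22 in the difference. On that scale 6 genes rose and 5 fell after FAM60A knockdown, where 1349 of the 18621 tested genes rose and 2251 fell. After SDS3 knockdown 0 rose and 26 fell, where 497 of all tested genes rose and 9121 fell. The median of the 41 genes was 0.080 after FAM60A knockdown, above that of all genes, -0.12. After SDS3 knockdown it was -0.40, below that of all genes, -0.32. The difference passed below 0 for 18 genes and above 0 for 0, and for 2341 and 192 of all tested genes. Scaling to the hybridisation controls gave 20 rises and 4 falls after FAM60A knockdown, where 3541 of all tested genes rose and 1713 fell. It gave 3 rises and 17 falls after SDS3 knockdown, where 1676 of all tested genes rose and 4360 fell. The difference passed below 0 for 28 genes and above 0 for 0, and for 3766 and 537 of all tested genes. The mean of the 24 poly-A probe sets differed between the 3 SDS3 control arrays themselves (9.42, 9.77 and 9.42 on the log2 scale).

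A feature that the choice of genes did not use is the X-box, the binding sequence of RFX transcription factors, which are known regulators of ciliary genes. RefSeq promoters (GRCh38.p14, 250 bases before to 50 after each transcription start) were matched to 37 of the 41 genes by symbol. The inverted repeat searched was GTNNCC, then 0 to 3 bases of any kind, then GGNNAC, which reads the same on both strands. It was found in 9 of the 37 genes (24.3%) and in 1283 of 27303 genes with a promoter (4.7%). The 9 genes include ARL6 and IFT122, IFT56 and IFT74, whose array values are given below, and TCTN1 with its opposite calls. The X-box is in capitals with 10 bases on each side, shown to compare its 6-base arms and spacer between genes. The strand named is that of the gene.
AHI1, chr6:135497785-135497818, minus strand: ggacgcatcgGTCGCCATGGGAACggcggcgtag
ARL6, first start, chr3:97764724-97764757, plus strand: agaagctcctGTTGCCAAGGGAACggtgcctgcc
ARL6, second start, chr3:97764377-97764408, plus strand: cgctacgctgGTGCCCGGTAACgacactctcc
IFT122, chr3:129440202-129440236, plus strand: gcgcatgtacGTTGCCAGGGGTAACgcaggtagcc
IFT56, chr7:139133754-139133787, plus strand: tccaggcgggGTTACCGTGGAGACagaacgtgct
IFT57, chr3:108222431-108222464, minus strand: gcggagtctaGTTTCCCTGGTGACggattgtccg
IFT74, chr9:26956374-26956406, plus strand: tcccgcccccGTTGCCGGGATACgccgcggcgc
TCTN1, chr12:110614119-110614151, plus strand: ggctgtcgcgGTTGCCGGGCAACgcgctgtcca
TCTN3, chr10:95694120-95694152, minus strand: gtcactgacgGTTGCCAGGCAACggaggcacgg
WDR19, chr4:39182456-39182489, plus strand: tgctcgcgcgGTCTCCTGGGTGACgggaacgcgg

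Counted with the first transcribed base as 0, the first base of the X-box lay at -24 for ARL6 (first start), -28 for IFT74, -14 for IFT56, -12 for IFT122 and 0 for TCTN1. TCTN3, at -215, was the farthest of the 9 genes from its start. By call, the X-box was present in 5 of 16 matched genes that rose after FAM60A knockdown, 1 of 6 that fell and 3 of 15 that did not pass. After SDS3 knockdown it was present in 1 of 5 that rose, 5 of 14 that fell and 3 of 18 that did not pass. No match to these letters was found in the windows of BBS12, RPGRIP1L, KIF3B, KIFAP3, MKS1 and IFT27. A match is a description of the sequence and not a measured binding site.

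BBS12 had the largest rise of the 41 genes after FAM60A knockdown. It encodes a chaperonin-like protein that helps assemble the BBSome. Its log2 signal was 7.29, 7.28 and 7.28 on the FAM60A control arrays and 8.27, 8.42 and 8.46 on the knockdown arrays. In the SDS3 experiment it was 6.75, 6.89 and 6.75 on the controls and 7.21, 7.44 and 7.34 on the knockdown arrays. Every knockdown array lay above every control of its experiment. The rise was 2.15-fold after FAM60A knockdown (log2 change 1.10, SE 0.0622, n = 3, limma adjusted p = 3.43e-07) and 1.45-fold after SDS3 knockdown (0.53, SE 0.0735, adjusted p = 0.000624). With poly-A scaling the second was 0.21 (adjusted p = 0.189). BBS10, the other chaperonin-like gene, had changes of -0.19 and -0.072 and did not pass in either (adjusted p = 0.0508 and 0.414).

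Of the 7 BBSome genes taken with ARL6, all had a positive change after FAM60A knockdown, and 5 passed (ARL6, BBS2, BBS5, BBS7 and BBS9). Over all tested genes 8275 of 18621 changes were positive, and 19.2% of the genes rose. The sign was unchanged in all 7 under each of the 4 other scalings tried. Of these, hybridisation control scaling moved every change up by 0.059, so it could not turn a positive sign. ARL6 encodes the small GTPase that recruits the BBSome to membranes. It measured 7.70, 7.67 and 7.85 in the FAM60A controls and 8.37, 8.18 and 8.23 in the knockdown, without overlap. It measured 7.15, 7.25 and 7.20 in the SDS3 controls and 7.38, 7.21 and 7.41 in the knockdown, where 1 knockdown array fell among the controls. ARL6 rose 1.43-fold after FAM60A knockdown (0.52, SE 0.0711, adjusted p = 0.000188) and had a change of 0.14 after SDS3 knockdown (adjusted p = 0.142). Its other probe set had 0.047 in the first (adjusted p = 0.735).

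BBS5, a BBSome subunit that binds phosphoinositides, rose by 0.46 after FAM60A knockdown and BBS7, a structural subunit, by 0.41. The BBS5 signal was low, with a mean of 6.38 (SD 0.25) in the FAM60A controls and 5.17 in the SDS3 controls. BBS5 did not reach the filter at log2 7. BBS7 rose after SDS3 knockdown too, by 0.37, but its other probe set passed in the opposite direction in both experiments (-0.35 and -0.31). BBS4, another subunit, fell by 0.32 after SDS3 knockdown (adjusted p = 0.00181), as did its other probe set (by 0.39), and had 0.14 after FAM60A knockdown (adjusted p = 0.0781). BBS2 (0.22) and BBS9 (0.19) rose least after FAM60A knockdown, and 1 of the 4 other BBS9 probe sets, with a mean of 5.94, rose by 0.58. The brightest other one, with a mean of 8.17 against 8.23, had 0.083 (adjusted p = 0.372), and the rest had -0.0030 and 0.035. Without shared-sequence probe sets BBS9 did not pass (0.083, adjusted p = 0.324). Without FAM60A knockdown replicate 1 BBS2 no longer passed (0.18, adjusted p = 0.0569), and BBS9 no longer passed without control replicate 3 or knockdown replicate 2 or 3 (0.16, 0.16 and 0.19). BBS1 had 0.20 after FAM60A knockdown and did not pass (adjusted p = 0.0509).

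The 13 IFT-B genes, whose products carry cargo outward, moved mostly down after SDS3 knockdown. All 13 changes were negative there, where 9034 of all 18621 tested changes were negative. Of the 13, 7 passed (IFT20, IFT27, IFT46, IFT52, IFT56, IFT74 and IFT88), where 18.8% of all tested genes fell, and the median was -0.18. With quantile normalization 1 of the 13 was positive. With the mean of all probe sets 3 of the 13 were positive, and 1 of these, IFT22, passed as a rise (0.19, adjusted p = 0.0262). After FAM60A knockdown 3 rose (IFT22, IFT57 and IFT172), 3 fell (IFT25, IFT27 and IFT74) and 7 did not pass. Of all tested genes 19.2% rose and 17.6% fell there. The IFT-B median was 0.051 and turned to -0.049 with poly-A scaling. IFT81, which binds tubulin with IFT74, was nearest to no change in both experiments (0.016 and -0.0022).

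IFT74, a core IFT-B subunit, fell in both. Its signal was 9.08, 8.83 and 8.98 in the FAM60A controls against 8.47, 8.47 and 8.37, and 8.33, 8.41 and 8.43 in the SDS3 controls against 7.72, 7.70 and 7.72. The knockdown arrays lay below the controls in both experiments. The level was 69.3% of control after FAM60A knockdown (-0.53, SE 0.0712, adjusted p = 0.000164) and 62.5% after SDS3 knockdown (-0.68, SE 0.0516, adjusted p = 2.36e-05). Its other probe set, dim with a mean of 5.25, fell in both as well (by 0.36 and 0.34). The difference between the knockdowns did not pass for IFT74 (-0.15, SE 0.0898, adjusted p = 0.252).

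IFT27, a small GTPase of the IFT-B complex that is needed to export BBSome cargo, also fell in both. It measured 11.22, 11.23 and 11.03 against 10.90, 10.83 and 10.77 in the FAM60A experiment and 10.05, 10.12 and 10.01 against 9.43, 9.66 and 9.47 in the SDS3 experiment. Neither pair of groups overlapped. The changes were -0.33 (SE 0.0689, adjusted p = 0.00334) and -0.54 (SE 0.0708, adjusted p = 0.000468), and of its 2 other probe sets neither passed in either experiment (the brighter one, -0.039 and 0.0094).

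IFT25, which pairs with IFT27, went with it in the first knockdown alone. IFT25 measured 12.46, 12.55 and 12.41 in the FAM60A controls and 12.16, 12.12 and 12.18 in the knockdown, and 11.79, 11.85 and 11.84 in the SDS3 controls and 11.85, 11.88 and 11.70 in the knockdown. The groups were apart in the first experiment and overlapped in the second. The fall was 0.32 after FAM60A knockdown (adjusted p = 0.00118), the change after SDS3 knockdown was -0.020 (adjusted p = 0.846), and the difference passed (0.30, SE 0.0829, adjusted p = 0.0152). The brighter of its other probe sets fell by 0.42 after FAM60A knockdown and had -0.026 after SDS3 knockdown. Both of these probe sets are of shared sequence. The remaining one, dimmer and not of shared sequence, had -0.125 (adjusted p = 0.454) and -0.20 (adjusted p = 0.0872). Without shared-sequence probe sets neither the fall after FAM60A knockdown (adjusted p = 0.405) nor the difference (-0.079) passed. With hybridisation control scaling (0.17) or poly-A scaling (0.081) the difference did not pass either.

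IFT56, a peripheral IFT-B subunit, fell after SDS3 knockdown. Its signal was 8.09, 8.23 and 8.24 in those controls and 7.71, 7.57 and 7.68 in the knockdown, and 9.09, 9.23 and 9.06 against 9.10, 9.12 and 9.07 in the FAM60A experiment. The SDS3 groups were apart and the FAM60A groups overlapped. After SDS3 knockdown 69.2% of the control level was left (-0.53, SE 0.0641, adjusted p = 0.000293), and the difference from the FAM60A change (-0.027) was -0.50 (SE 0.0882, adjusted p = 0.000752). Of its 3 other probe sets 2 fell after SDS3 knockdown (by 0.61 and 0.23), and 1, with a mean of 5.72, had 0.23 and did not pass. After FAM60A knockdown 2 of the 3 fell (by 0.24 and, for the dim one, 0.32). The difference passed below 0 for 2 of them (-0.37 and -0.31) and above 0 for the dim one (0.55, adjusted p = 0.00428).

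IFT20, which also works at the Golgi, fell by 0.33 after SDS3 knockdown (adjusted p = 0.000723) and had 0.15 after FAM60A knockdown (adjusted p = 0.0899). IFT172, the tip-turnaround subunit, and IFT57 rose by 0.24 and 0.28 after FAM60A knockdown and had -0.093 and -0.075 after SDS3 knockdown. The other probe sets of IFT57 passed in opposite directions after SDS3 knockdown (-0.20 for the brighter and 0.49 for the dimmer); after FAM60A knockdown they had 0.25, not passing, and a rise of 0.70. IFT22, a small GTPase, rose by 0.29 after FAM60A knockdown and had -0.14 after SDS3 knockdown (adjusted p = 0.0545). A second IFT22 probe set rose in both (by 0.49 and 0.52). Smaller falls after SDS3 knockdown were those of IFT46 (0.24), IFT52 (0.19, and 0.25 on another probe set) and IFT88 (0.18). In the SDS3 experiment the call of IFT52 was lost without control 2, knockdown 1 or knockdown 2 (-0.19, -0.17 and -0.18). That of IFT88 was lost without control 2 or 3 or knockdown 1 or 2 (-0.15 to -0.19). IFT80 passed in neither experiment (0.15 and -0.091).

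**Figure D2:**
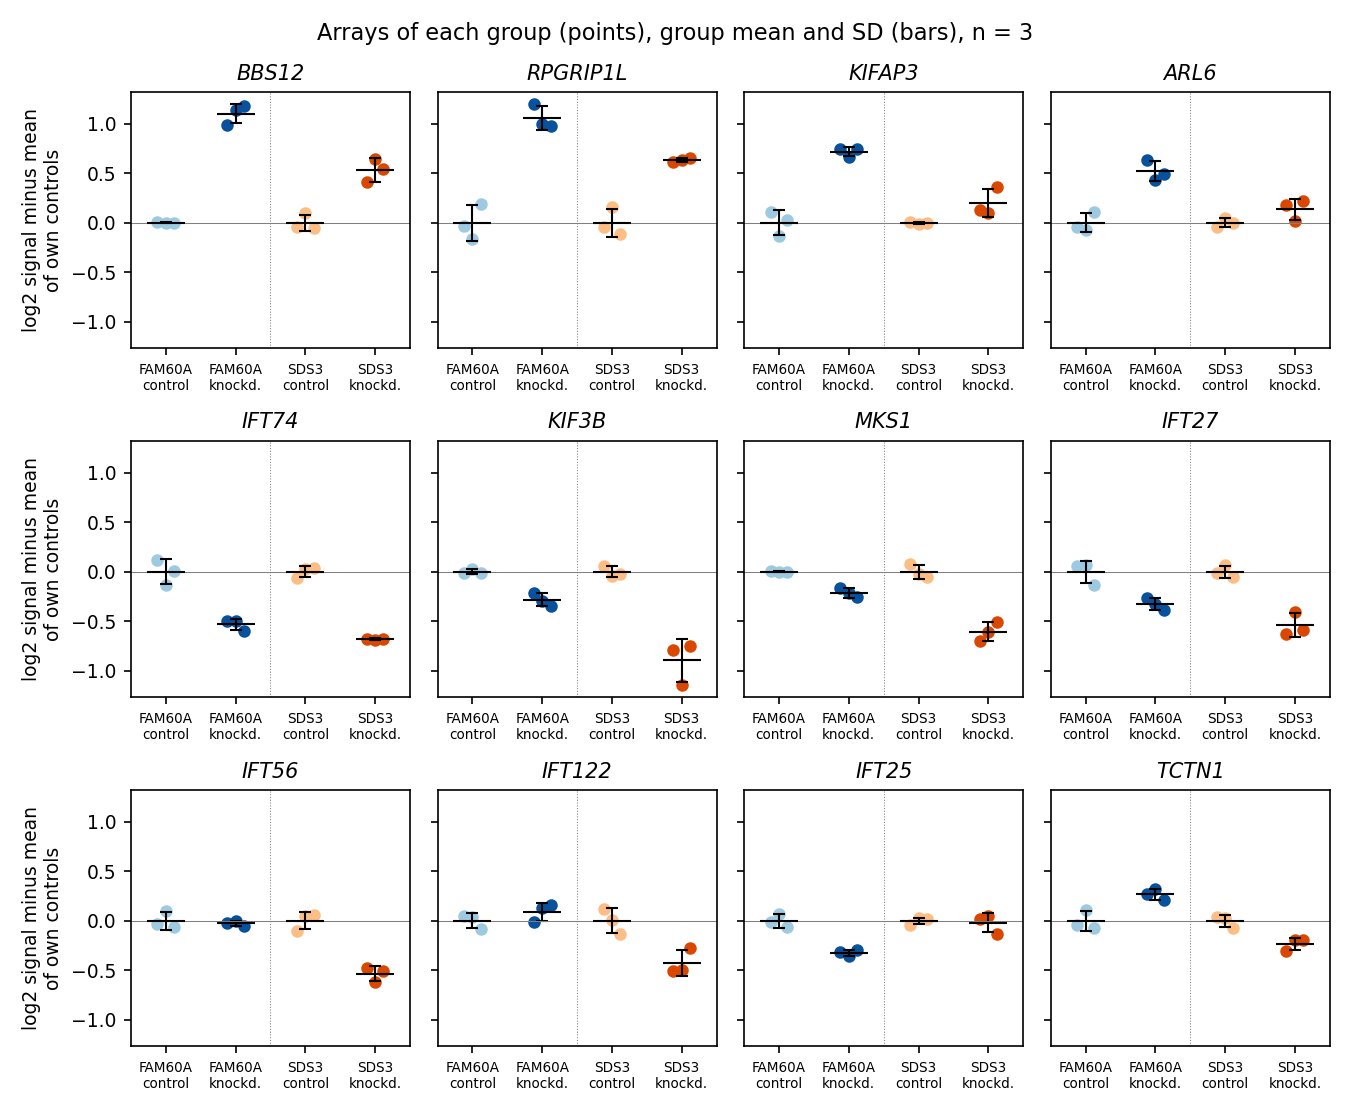
Log2 signal of every array minus the mean of its own controls, for the genes with array values, TCTN1 among them. Points are arrays, bars the group mean and SD (n = 3), and the dotted line parts the experiments. KIF3B sits farthest below its controls in the SDS3 knockdown, BBS12 and RPGRIP1L farthest above theirs in the FAM60A knockdown.

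Among the kinesin-2 genes, the motor that carries IFT-B trains outward, KIF3B fell furthest. KIF3B, one of the 2 motor subunits, measured 11.19, 11.23 and 11.18 in the FAM60A controls and 10.99, 10.90 and 10.86 in the knockdown. It measured 10.74, 10.63 and 10.65 in the SDS3 controls and 9.89, 9.53 and 9.92 in the knockdown. The knockdown arrays were below the controls in both, and SDS3 knockdown replicate 2 was the lowest. After SDS3 knockdown 53.8% of the control level was left (-0.89, SE 0.101, adjusted p = 0.000206), the largest fall of the 41 genes, and after FAM60A knockdown 82.2% (-0.28, SE 0.0572, adjusted p = 0.0025). The difference was -0.61 (SE 0.12, adjusted p = 0.00186). The other KIF3B probe set fell by 0.91 after SDS3 knockdown and by 0.20 after FAM60A knockdown. With hybridisation control scaling the FAM60A fall did not pass (-0.22, adjusted p = 0.0789).

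KIFAP3 encodes the adaptor that links the kinesin-2 motor to its cargo. It measured 10.10, 9.86 and 10.02 in the FAM60A controls and 10.74, 10.66 and 10.74 in the knockdown, with no overlap. In the SDS3 experiment it measured 9.65, 9.63 and 9.64 in the controls and 9.77, 9.74 and 10.00 in the knockdown, also apart but closer. The rise was 1.65-fold after FAM60A knockdown (0.72, SE 0.0701, adjusted p = 1.68e-05). The change after SDS3 knockdown was 0.20 (SE 0.0732, adjusted p = 0.0672), and the difference was -0.52 (SE 0.105, adjusted p = 0.00224). KIF3A, the partner motor subunit, rose by 0.18 after SDS3 knockdown (adjusted p = 0.024), a call lost without SDS3 control 1 or 2 or knockdown 1 or 2 (0.15 to 0.19); with poly-A scaling it was -0.14. Its other probe set had -0.067 after SDS3 knockdown (adjusted p = 0.697), rose by 0.45 after FAM60A knockdown, where the brighter one had 0.049, and gave a difference of -0.52 that passed (adjusted p = 0.0111). With the mean of all probe sets the KIF3A change after SDS3 knockdown was 0.057 (adjusted p = 0.533).

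Of the dynein-2 genes, the return motor, DYNC2H1 (the heavy chain) rose by 0.25 after FAM60A knockdown (adjusted p = 0.0192) and had 0.019 after SDS3 knockdown. Without control replicate 2 or knockdown replicate 2 or 3 of the FAM60A experiment it no longer passed (0.21, 0.24 and 0.20). DYNC2LI1, a light intermediate chain, passed in neither on its brightest probe set (-0.19 and -0.053). Of its 3 other probe sets 2 fell after FAM60A knockdown (by 0.33 and 0.34) and 1 after SDS3 knockdown (by 0.25). The FAM60A fall passed under 5 alternatives: 1 fit of 12 arrays (-0.19), eBayes with trend and robust (-0.19), the mean of all probe sets (-0.22), no shared-sequence probe sets (-0.33) and quantile normalization (-0.26). The fall after SDS3 knockdown passed with poly-A scaling (-0.38).

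The 5 IFT-A genes, whose products carry the return trains, all had positive changes after FAM60A knockdown. Of all 18621 tested changes 8275 were positive there. With poly-A scaling 2 of the 5 were negative. IFT140, WDR19 and WDR35 rose (by 0.47, 0.38 and 0.26). The other probe sets of these 3 genes did not rise. Those of IFT140 had -0.21 and -0.13, the brighter other one of WDR19 had 0.048 and that of WDR35 0.023 after FAM60A knockdown, and none passed in a fit over all probe sets (adjusted p of 0.0655 or more). Without shared-sequence probe sets IFT140 passed as a fall (-0.21, adjusted p = 0.0456), and 1 of the 5 genes rose and 2 fell. Over the 18386 genes tested in that fit 3357 rose and 2933 fell. With the mean of all probe sets 0 of the 5 rose, 0 fell and 2 were negative, where 3388 of 18143 tested genes rose and 3026 fell. After SDS3 knockdown WDR19 and WDR35 rose by 0.22 and 0.26, and these became -0.099 and -0.063 with poly-A scaling. The WDR19 call was lost without SDS3 control 2 or 3 or knockdown 2 or 3 (0.18 to 0.23). IFT43, a small IFT-A subunit, passed in neither on its brightest probe set (0.058 and -0.14), while 1 other fell after FAM60A knockdown (by 0.24, adjusted p = 0.0199) and another after SDS3 knockdown (by 0.20, adjusted p = 0.0307).

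IFT122, a core IFT-A subunit, went the other way after SDS3 knockdown. Its signal was 9.36, 9.24 and 9.10 in those controls and 8.73, 8.74 and 8.95 in the knockdown, without overlap, and 10.13, 10.11 and 9.99 against 10.07, 10.21 and 10.23 in the FAM60A experiment, with overlap. The fall was to 74.4% of control after SDS3 knockdown (-0.43, SE 0.085, adjusted p = 0.00457), the change after FAM60A knockdown was 0.092 (adjusted p = 0.319), and the difference was -0.52 (SE 0.112, adjusted p = 0.00349). This probe set is one of shared sequence; the brighter of its other probe sets had 0.088 after SDS3 knockdown (adjusted p = 0.536) and fell by 0.21 after FAM60A knockdown (adjusted p = 0.0263).

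Of the 9 transition zone genes 5 rose and 2 fell after FAM60A knockdown, and 1 rose and 4 fell after SDS3 knockdown. Of all tested genes 19.2% rose and 17.6% fell in the first, and 15.8% rose and 18.8% fell in the second. RPGRIP1L, a scaffold that places other transition zone proteins, rose in both. It measured 7.24, 7.10 and 7.46 in the FAM60A controls and 8.47, 8.26 and 8.24 in the knockdown, and 6.44, 6.63 and 6.36 in the SDS3 controls and 7.08, 7.10 and 7.12 in the knockdown. All knockdown arrays were above their controls. The rise was 2.08-fold after FAM60A knockdown (1.06, SE 0.0934, adjusted p = 8.12e-06) and 1.55-fold after SDS3 knockdown (0.63, SE 0.0726, adjusted p = 0.000225). Its other probe set, with a mean of 4.93, had -0.086 and 0.068 and passed in neither. The difference between knockdowns, -0.43 (SE 0.129, adjusted p = 0.0252), did not pass without FAM60A control 1 or 2, FAM60A knockdown 1, SDS3 control 2 or SDS3 knockdown 1 (-0.35 to -0.42).

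MKS1, a B9-domain protein mutated in Meckel syndrome, fell in both. Its signal was 9.012, 9.002 and 9.010 against 8.85, 8.79 and 8.75 in the FAM60A experiment, and 8.41, 8.31 and 8.28 against 7.63, 7.72 and 7.82 in the SDS3 experiment. The knockdown arrays lay below the controls in both, and by more in the second. The level was 86.4% of control after FAM60A knockdown (-0.21, SE 0.0541, adjusted p = 0.0102) and 65.8% after SDS3 knockdown (-0.60, SE 0.0657, adjusted p = 0.000167), and the difference was -0.39 (SE 0.0829, adjusted p = 0.00294). The other MKS1 probe set fell by 0.22 and 0.52. With hybridisation control scaling the FAM60A fall did not pass (-0.15, adjusted p = 0.294).

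The 3 tectonic genes, which encode secreted and membrane proteins of the same complex as MKS1, differed from one another. TCTN1 measured 10.06, 10.21 and 10.03 in the FAM60A controls and 10.38, 10.42 and 10.31 in the knockdown, and 9.81, 9.80 and 9.70 in the SDS3 controls and 9.47, 9.57 and 9.57 in the knockdown. Its arrays were apart in both experiments, above the controls in the first and below in the second. The rise was 0.27 (SE 0.0653, adjusted p = 0.00812), the fall 0.23 (SE 0.0575, adjusted p = 0.0136) and the difference -0.50 (SE 0.0874, adjusted p = 0.000788). The fall did not pass without SDS3 control replicate 2 (-0.22) or knockdown replicate 1 (-0.20), and the rise did not pass with poly-A scaling (0.17). The other TCTN1 probe set had 0.095 and 0.038 and passed in neither. TCTN3 fell by 0.41 after SDS3 knockdown, as did its other probe set (by 0.40), and had 0.022 after FAM60A knockdown, and TCTN2 passed in neither (0.18 and 0.042).

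CEP290, which tethers the transition zone membrane to the microtubules, fell by 0.36 after FAM60A knockdown and by 0.17 after SDS3 knockdown, and the second call was lost without any 1 of the SDS3 controls or of knockdowns 1 and 2 (-0.15 to -0.19). Its other probe set had 0.17 after FAM60A knockdown (not passing) and fell by 0.45 after SDS3 knockdown. AHI1, mutated in Joubert syndrome, rose by 0.39 after FAM60A knockdown, where another of its probe sets fell by 0.23. After SDS3 knockdown it had 0.11 and did not pass, while 2 other probe sets fell by 0.41 and 0.38. CC2D2A and NPHP4, a basal gate protein and a nephrocystin, rose by 0.29 and 0.28 after FAM60A knockdown and passed in neither direction after SDS3 knockdown (-0.072 and 0.097). No other CC2D2A probe set passed after FAM60A knockdown. The CC2D2A rise did not pass without shared-sequence probe sets (0.19, adjusted p = 0.173). Neither rise passed with the mean of all probe sets (CC2D2A 0.10, NPHP4 0.19) or with poly-A scaling (0.19 and 0.18).

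**Figure D3:**
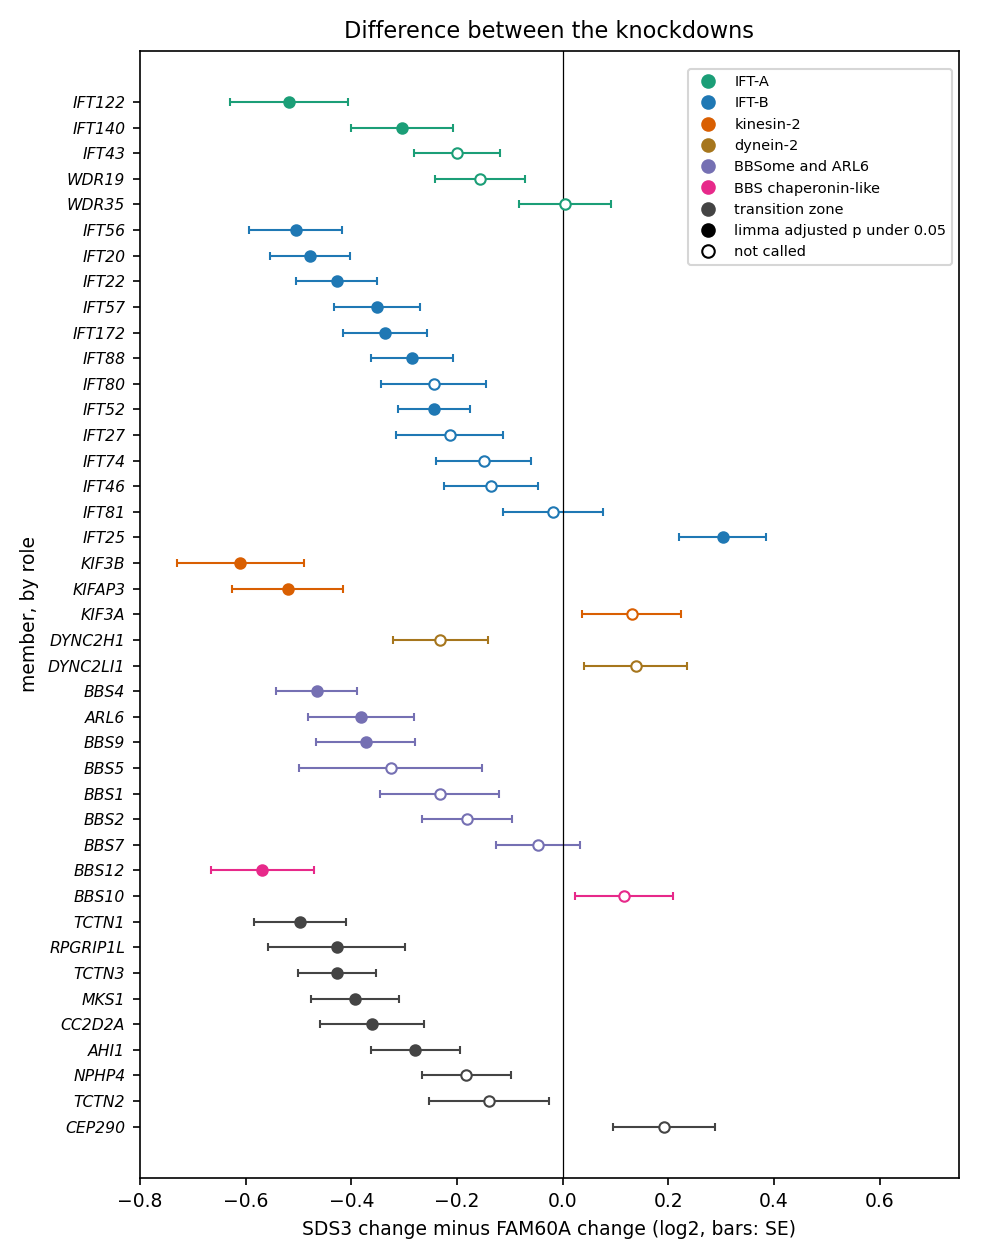
Change after SDS3 knockdown minus change after FAM60A knockdown (log2, x axis) for the 41 genes, ordered by role; bars are the SE of the fit over 12 arrays, and filled points passed (limma adjusted p under 0.05). KIF3B is lowest at -0.61, and IFT25 at 0.30 is the filled point to the right of 0.

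Across roles, the difference passed below 0 in 7 of 13 IFT-B genes, 2 of 5 IFT-A genes, 2 of 3 kinesin-2 genes, 0 of 2 dynein-2 genes, 3 of 7 BBSome genes with ARL6, 1 of 2 chaperonin-like genes and 6 of 9 transition zone genes. It did so in 15.3% of all tested genes. All 7 BBSome genes with ARL6 had a negative difference, and with quantile normalization too. The other scalings moved every difference down, by 0.0039 with median centring, 0.14 with hybridisation controls and 0.22 with poly-A controls. Those could not turn a negative sign. The SE of the 41 changes ran from 0.0534 to 0.104 after FAM60A knockdown, from 0.0468 to 0.117 after SDS3 knockdown and from 0.0682 to 0.173 for the difference, which is of the size of many of the changes that did not pass. Because 19 of the 41 genes were read from probe sets of shared sequence, other probe sets of the called genes were compared. Of 20 genes called after FAM60A knockdown that had another probe set above the filter, 7 had one that passed the same way and 2 (AHI1 and BBS7) one that passed the opposite way. After SDS3 knockdown these counts were 8 and 1 (BBS7) of 16, and for the difference 8 and 1 of 17. For KIF3B, IFT74 and MKS1 another probe set passed the same way in both experiments. That of IFT74 was dim, with a mean of 5.25. The FAM60A falls of KIF3B and MKS1 did not pass with hybridisation control scaling.

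Other cilium genes, in lists that were written with results of these data known, were counted in the same way. For all these lists the shares of all tested genes were 19.2% higher and 17.6% lower after FAM60A knockdown. They were 15.8% and 18.8% after SDS3 knockdown, and 15.3% below 0 and 9.99% above for the difference. In lists this short some counts lie near these shares. Of 5 further IFT genes 2 rose and 2 fell after FAM60A knockdown, and 1 rose and 2 fell after SDS3 knockdown. IFT70A, an IFT-B subunit, rose by 0.24 after FAM60A knockdown (0.14 with poly-A scaling, not passing) and fell by 0.92 after SDS3 knockdown, while its paralog IFT70B fell by 0.26 and 0.70; these genes are near-identical copies and their probe sets may share signal. TULP3, the adaptor by which IFT-A brings receptors into the cilium, rose by 0.51 and 0.29, the second with neither hybridisation control (0.21) nor poly-A scaling (-0.037). Of 7 further BBSome and chaperonin genes 0 passed after FAM60A knockdown, and 2 rose and 4 fell after SDS3 knockdown. CCDC28B, a modifier of Bardet-Biedl syndrome, and BBIP1, the smallest BBSome subunit, fell by 0.56 and 0.45, and TRIM32, a ubiquitin ligase, rose by 0.37 (0.050 with poly-A scaling, not passing). The other probe set of CCDC28B had -0.031.

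Of 14 further transition zone genes 4 rose and 4 fell after FAM60A knockdown, and 1 rose and 5 fell after SDS3 knockdown. B9D1, a partner of MKS1 in the B9 complex, fell by 0.75 after SDS3 knockdown and had 0.021 after FAM60A knockdown. INVS, a nephrocystin, fell by 0.28 and 0.62, and TMEM237, a membrane protein of the gate, by 0.39 and 0.44; averaged over all probe sets, INVS had -0.33 after SDS3 knockdown and TMEM237 -0.058 after FAM60A knockdown, and neither passed. Of 9 further motor genes 4 rose and 2 fell after FAM60A knockdown and 2 rose and 3 fell after SDS3 knockdown. DYNC2I2, a dynein-2 intermediate chain, fell by 0.60 after SDS3 knockdown, the light chain gene DYNLT2B fell by 0.27 and 0.37, and KIF3C, a further kinesin-2 subunit, rose by 0.39 after FAM60A knockdown (0.29 with poly-A scaling, not passing).

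Of 20 basal body and centriole genes 8 rose and 3 fell after FAM60A knockdown, and 1 rose and 5 fell after SDS3 knockdown, with a difference that passed below 0 for 10 and above 0 for 0. CPLANE1, which helps recruit IFT proteins to the basal body, rose by 0.94 and 0.28; the second did not pass with quantile normalization (0.26), hybridisation control scaling (0.21) or poly-A scaling (-0.040). C2CD3, which builds the distal appendages, rose by 0.69 after FAM60A knockdown and had -0.068 after SDS3 knockdown. CEP41, involved in tubulin glutamylation of the axoneme, fell by 0.27 and 0.65. Of 11 cilium disassembly genes 2 rose and 4 fell after FAM60A knockdown, and 2 rose and 5 fell after SDS3 knockdown. NDE1, a suppressor of cilium length, fell by 0.58 and 0.71 (averaged over its probe sets, the first was -0.026 and did not pass), NEK2 by 0.44 and 0.26, and NEDD9, the scaffold that activates Aurora A at the cilium, rose by 0.31 and 0.42, where neither rise passed with poly-A scaling (0.21 and 0.099).

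The Hedgehog pathway signals through the cilium. Of its 14 listed and tested genes 4 rose and 0 fell after FAM60A knockdown, and 5 rose and 0 fell after SDS3 knockdown. With poly-A scaling 1 rose and 7 fell in the second, and with hybridisation control scaling 4 rose and 3 fell. On the poly-A scale 497 of all 18621 tested genes rose and 9121 fell after SDS3 knockdown. GLI2, the main activator of the pathway, rose by 1.11 and 0.87, GPR161, a ciliary receptor that restrains it, by 0.88 and 0.44, and GLI1, a transcription factor and target gene, by 0.57 and 0.40. With poly-A scaling the SDS3 changes of GPR161 (0.12) and GLI1 (0.073) did not pass. Of 16 cilium membrane and GTPase genes 7 rose and 2 fell after FAM60A knockdown, and 7 rose and 1 fell after SDS3 knockdown, where with poly-A scaling 1 rose and 5 fell. RP2, a GTPase activator for ARL3, fell by 1.35 and then rose by 0.40, a rise that did not pass with either control scaling (0.32 and 0.076). CYS1, a ciliary membrane protein, rose by 0.93 and 0.88, and EVC, a regulator of Hedgehog signalling, rose by 0.71 after FAM60A knockdown with 0.0024 after SDS3 knockdown.

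**Figure D4:**
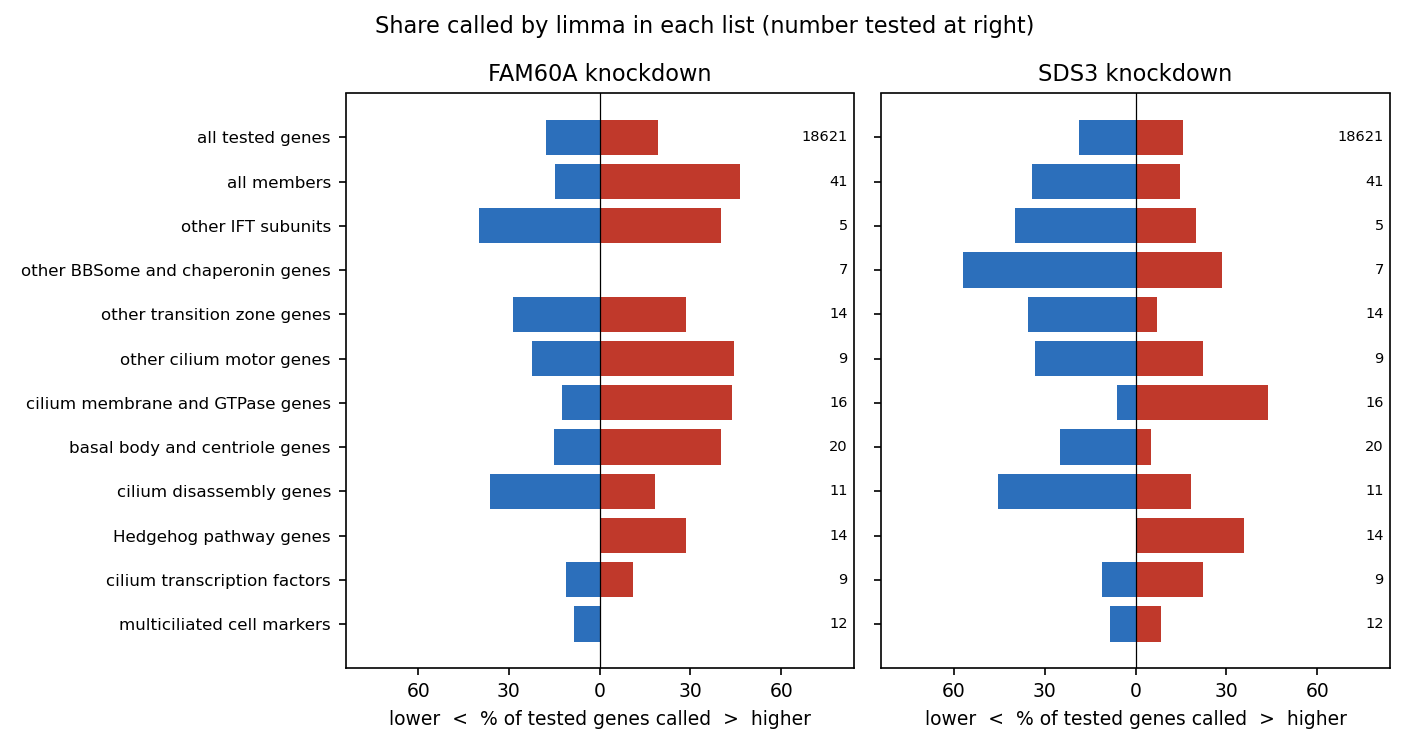
Percent of the tested genes of each list called higher (red, right) and lower (blue, left) in each knockdown, with the number tested at the right and all tested genes in the top bar. Bars of lists with few genes move in large steps; the 41 genes described here are 'all members', and with poly-A scaling their 6 rises after SDS3 knockdown become 0 and those of the Hedgehog genes 1.

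Transcription factors of ciliary genes were measured too. Of 9 tested 1 rose and 1 fell after FAM60A knockdown, and 2 rose and 1 fell after SDS3 knockdown. RFX3, an RFX factor that binds the X-box, fell by 0.21 and 0.56, the first not with either control scaling (-0.15 and -0.31). MYB, which acts in multiciliated cells, rose by 0.53 and 0.70, and GMNC, a regulator of the multiciliated fate, by 0.29 after SDS3 knockdown, though with poly-A scaling that was -0.037. Of 12 multiciliated cell markers tested 0 rose and 1 fell after FAM60A knockdown, and 1 rose and 1 fell after SDS3 knockdown. TPPP3, a tubulin-binding protein, fell by 0.63 and 1.499, TEKT1, an axonemal tektin, rose by 0.23 after SDS3 knockdown (with poly-A scaling -0.094), and the defining gene FOXJ1 had -0.15 and -0.25 and passed in neither.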

How the data were processed

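Per the submitters' processing notes, the authors processed the arrays with RMA, for which no version or setting is given in the sources used here. The deposited values are linear intensity, 1 value per array for 54675 probe sets. The plan assumed log2 values, so log2 of the intensity was taken. Groups come from the sample titles, and no per-sample column was left unused. The platform annotation gave 41097 probe sets 1 gene symbol, 1801 several and 11777 none listed; Entrez identifiers updated 41043 through RefSeq (GRCh38.p14). A gene is its probe set with the highest mean. Genes reaching log2 5 on 3 or more arrays were tested with limma 3.58.1 in R 4.3.3 (lmFit, eBayes; data.table version 1.17.8), on 6 arrays per knockdown and all 12 for the difference. P-values were Benjamini-Hochberg adjusted over 18621 genes, with a threshold of 0.05. The fit was tested on simulated data.

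The members and lists were chosen with earlier results of these data known. Array values are given for members that passed with a change of at least 0.5 and for up to 4 per direction with the largest passing difference. Those of TCTN1, which had opposite calls in the knockdowns, are given outside this rule. Up to 3 genes are named per further list. Alternatives were no filter, a filter at log2 7, an average over a gene's probe sets, no shared-sequence probe sets, 4 other scalings (poly-A chosen after the data were seen), 1 fit of 12 arrays, eBayes with trend and robust, a replicate block, each array left out, an adjusted p of 0.01 and a 1.5-fold minimum. The number of arrays limits the precision. Promoters of BBS9, IFT22, TCTN2 and WDR35 were not used here.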

Additional observations from a re-analysis of the deposited data

Results flagged for a closer look

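For 22 of the 41 genes the change after SDS3 knockdown differed from that after FAM60A knockdown in a test of the difference itself (limma over 12 arrays, Benjamini-Hochberg adjusted p under 0.05). The values are log2 and describe the same arrays on which the group was proposed. Among motor genes these were KIF3B (-0.61) and KIFAP3 (-0.52). Among IFT-B genes they were IFT56 (-0.50), IFT20 (-0.48), IFT22 (-0.43), IFT57 (-0.35), IFT172 (-0.34), IFT88 (-0.28), IFT52 (-0.24) and IFT25 (0.30). IFT-A gave IFT122 (-0.52) and IFT140 (-0.30). The BBSome with its partners gave BBS12 (-0.57), BBS4 (-0.47), ARL6 (-0.38) and BBS9 (-0.37). The transition zone gave TCTN1 (-0.50), RPGRIP1L (-0.43), TCTN3 (-0.43), MKS1 (-0.39), CC2D2A (-0.36) and AHI1 (-0.28). Without shared-sequence probe sets the differences of BBS9 (-0.22), CC2D2A (-0.21), IFT122 (0.30), IFT140 (0.11), IFT25 (-0.079) and RPGRIP1L (0.15) did not pass.

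The adjusted p was lowest for IFT20 (0.000358), BBS4 (0.000451) and BBS12 (0.000676) and highest for IFT140 (0.0323). IFT20 and BBS4 had fallen after SDS3 knockdown and had not passed after FAM60A knockdown. The call for IFT140 was lost without any 1 of 8 arrays: FAM60A controls 1 and 2 and knockdowns 2 and 3, SDS3 controls 1 and 3 and knockdowns 1 and 2 (-0.26 to -0.30). The call for AHI1 was lost without FAM60A control 1 or 3, FAM60A knockdown 2 or 3, SDS3 control 2 or SDS3 knockdown 2 (-0.22 to -0.28).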

How the results depend on the processing

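Numbers of genes called moved by over 1.5 times in these cases. With the mean of all probe sets 12 genes rose after FAM60A knockdown, where 3388 of 18143 tested genes rose. On those means 0 differences passed above 0, and 1653 did over all tested genes. Quantile normalization gave 2 differences above 0, and 2247 over all tested genes. Scaled to hybridisation controls, 3 rose after SDS3 knockdown and 0 differences passed above 0. Scaled to poly-A controls, 6 rose after FAM60A knockdown, 0 rose and 26 fell after SDS3 knockdown, and 0 differences passed above 0. Counts over all tested genes on both control scales are given above. At an adjusted p under 0.01, 0 differences passed above 0. At 1.5-fold or more, 3 rose and 0 fell after FAM60A knockdown, 1 rose and 3 fell after SDS3 knockdown, and 0 differences passed above and 1 below 0. All tested genes were not counted at an adjusted p under 0.01 or at 1.5-fold. The changes that turned sign are listed here only where they passed in the reported fit or in the alternative. With the mean of all probe sets they were IFT22 after SDS3 knockdown (0.19) and the differences of CEP290 (-0.27) and IFT140 (0.025). Without shared-sequence probe sets they were CEP290 (0.17), IFT122 (-0.21), IFT140 (-0.21) and RPGRIP1L (-0.086) after FAM60A knockdown, IFT122 (0.088) and WDR19 (-0.014) after SDS3 knockdown, and the differences of CEP290 (-0.62), IFT122 (0.30), IFT140 (0.11), IFT25 (-0.079) and RPGRIP1L (0.15). With poly-A scaling they were KIF3A (-0.14), WDR19 (-0.099) and WDR35 (-0.063) after SDS3 knockdown. Changes that passed in neither fit turned too. After SDS3 knockdown 15 of the 41 changes were positive in the reported fit and 3 with poly-A scaling. The cause was not tested.

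Deviations of same-numbered controls and knockdowns from their group means correlated little (r of -0.072, -0.12 and -0.080 for FAM60A and -0.028, 0.034 and -0.078 for SDS3, over genes). Differently numbered arrays gave up to 0.15, so these values do not decide whether the numbers pair the samples. With a replicate block 19 rose and 6 fell after FAM60A knockdown, where 3293 of all 18621 tested genes rose and 2946 fell. After SDS3 knockdown 5 rose and 12 fell, where 2667 of all tested genes rose and 3181 fell. In that fit 1 difference passed above and 19 below 0, and 1529 and 2474 did so over all tested genes. Of the 25, 20 and 22 calls 16, 15 and 14 were kept with the mean of all probe sets, 18, 17 and 16 without shared-sequence probe sets, and 11, 14 and 17 with poly-A scaling.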
